A study of Mus musculus with 6 samples.

Results

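The Gstm genes encode the Mu class of cytosolic glutathione transferases. They were chosen by symbol: Gstm1, Gstm2, Gstm3, Gstm4, Gstm5, Gstm6 and Gstm7, together with the pseudogene Gstm2-ps1, which makes 8 of the 20673 genes listed in the deposited tables. Liver RNA was measured by RNA sequencing in C57BL/6J mice from Jackson Laboratory. Of these, 3 mice had received a regular diet (RD, Teklad) and 3 mice a high-cholesterol diet (HCD, TD.88051) for 3 days, with 1 library per mouse. The HCD also held cocoa butter and sodium cholate and more fat than the RD, so that cholesterol, cholate and fat cannot be told apart. The livers were collected without cecal ligation and puncture, the sepsis model of the same study. The study used C57BL/6J mice of both sexes at around 12 weeks of age, and the sources used here do not give the sex of each of these 6 mice.

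Glutathione transferases join reduced glutathione to electrophilic compounds, which makes these compounds more soluble and easier to export from the cell. The Mu enzymes act as dimers in the cytosol, and the liver is among the tissues richest in them. Their genes arose by tandem duplication and lie side by side on 1 chromosome, where several of them are known to respond to NRF2, the oxidant-sensing transcription factor, and to the xenobiotic receptor CAR. Whether neighbouring genes of such a cluster move together with diet was the question of the comparisons described here.

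The 7 coding genes lie on chromosome 3 (GENCODE M21, GRCm38) between 107895821 and 108044894, a span of 149074 bases, in the order Gstm5, Gstm7, Gstm6, Gstm3, Gstm2, Gstm1, Gstm4. Gstm5 is on the plus strand and the other 6 are on the minus strand, and the gaps between neighbours run from 7029 bases (Gstm7 to Gstm6) to 27647 bases (Gstm5 to Gstm7). Gstm2-ps1 is annotated as a processed pseudogene on chromosome 5, from 116632908 to 116633564 on the minus strand, and is therefore not part of the cluster by position. The submitters' processing notes name the build GRCm39. The gene lengths that the deposited values imply match the exon lengths of M21 for all 8 Gstm genes, and positions are given on GRCm38 for that reason.

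The Gstm genes resemble each other closely, and 90 aligned bases from the start of the coding sequence show how closely. Capitals mark the bases that differ from Gstm1. The stretch covers coding bases 1 to 90, and for Gstm5, whose coding sequence is longer, bases 10 to 99.
Gstm1: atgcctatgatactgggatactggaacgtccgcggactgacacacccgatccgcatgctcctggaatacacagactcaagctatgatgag
Gstm2-ps1: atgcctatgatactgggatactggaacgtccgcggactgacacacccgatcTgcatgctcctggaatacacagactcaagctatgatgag
Gstm3: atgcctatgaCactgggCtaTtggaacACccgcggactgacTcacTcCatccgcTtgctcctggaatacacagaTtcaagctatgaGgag
Gstm2: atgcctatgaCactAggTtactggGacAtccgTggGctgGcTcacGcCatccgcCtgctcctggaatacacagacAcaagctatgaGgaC
Gstm4: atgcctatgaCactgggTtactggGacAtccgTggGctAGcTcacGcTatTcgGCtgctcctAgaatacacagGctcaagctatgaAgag
Gstm6: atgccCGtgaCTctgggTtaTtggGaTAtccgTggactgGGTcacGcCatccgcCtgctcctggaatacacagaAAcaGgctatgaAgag
Gstm7: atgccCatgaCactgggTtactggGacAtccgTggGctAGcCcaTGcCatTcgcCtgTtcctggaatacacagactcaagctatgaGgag
Gstm5: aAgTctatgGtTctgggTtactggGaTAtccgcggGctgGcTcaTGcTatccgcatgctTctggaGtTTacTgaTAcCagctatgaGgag
In this stretch Gstm2-ps1 differed from Gstm1 at 1 base and Gstm3 at 11, whereas Gstm5 differed at 23. Over the coding sequence of 657 bases, Gstm2-ps1 and Gstm1 were identical at 643 positions (97.9%). Gstm3 was 89.5% identical to Gstm1, Gstm2 86.0%, Gstm6 82.8%, Gstm7 82.6%, Gstm4 80.2% and Gstm5 71.2%. By sequence, Gstm2-ps1 is thus nearer to Gstm1 than to Gstm2 (84.8%), whose name it carries. Its 14 differences from Gstm1 include C496T, counted from the first base of the start codon with the base of Gstm1 first, which makes a stop at codon 166.

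**Figure D1:**
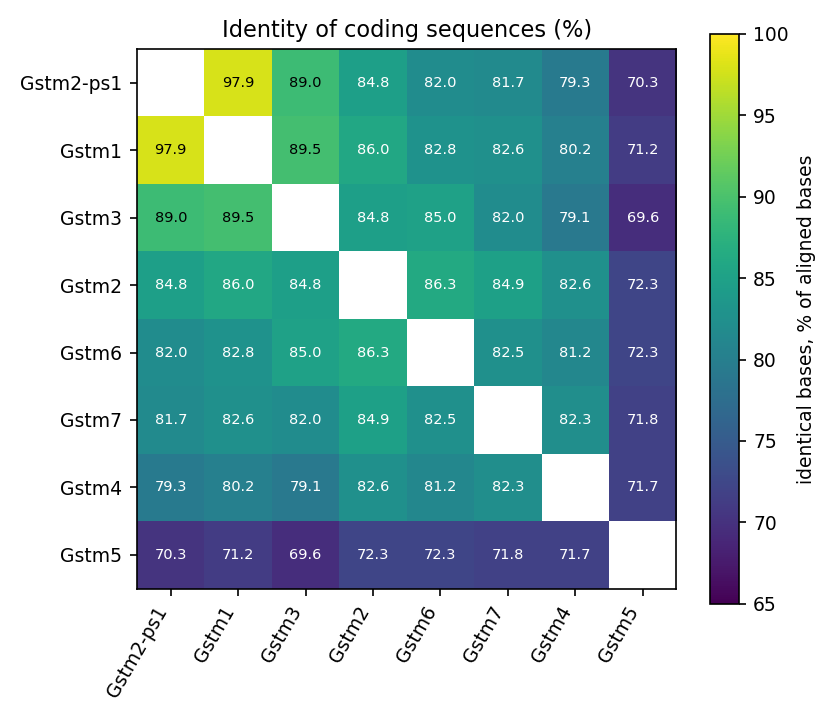
Coding sequence identity, in percent of aligned bases, between each pair of the 8 Gstm genes. The order is Gstm2-ps1, Gstm1, Gstm3, Gstm2, Gstm6, Gstm7, Gstm4 and Gstm5. Gstm1 and Gstm2-ps1 are the most alike pair (97.9%), and Gstm5 lies between 69.6% and 72.3% from all others.

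Depth ran from 13771630 to 23129576 counts in the RD libraries, and from 13935491 to 18545549 in the HCD libraries. Libraries of the same diet differed by far more than counting error (chi-square per degree of freedom from 30.3 to 157), and no pair looked like a single library. HCD replicate 1 stood apart from the other livers. It held 5032 counts of Xist, the RNA of the inactive X chromosome in female cells, against 0 in the other 5 livers. The summed level of 15 genes known to be higher in male liver was 196 CPM there and 6540 to 10800 CPM in the others, and that of genes known to be higher in female liver was 2970 CPM against 35.6 to 91.9. CPM are counts brought to a common library total, scaled with edgeR's TMM factors. Results are therefore given with and without this liver where they turn on it, and its part in them was otherwise not tested. Hepatocyte markers, a list of 10 genes, summed to 102000 to 129000 CPM with RD and 108000 to 148000 with HCD, so the markers of the labelled tissue were abundant.

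Gstm1 was by far the most abundant Mu transcript with either diet. Its mean was 1850 ± 395 FPKM (SD, n = 3) with RD and 4740 ± 1460 with HCD, which placed it 49th and 21st among the genes listed. FPKM are fragments per kilobase of gene at a common total, so levels of different genes can be compared on this scale. Over the 6 livers the order of mean FPKM was Gstm1 (3290), Gstm3 (173), Gstm6 (79.4), Gstm2-ps1 (74.2), Gstm4 (64.9), Gstm7 (55.1), Gstm2 (40.6) and Gstm5 (9.26). Gstm1 lay above Gstm3 in 6 of 6 livers, by 19.1 times in the means. Gstm3 lay above Gstm6 in 5 of 6 livers and Gstm7 above Gstm2 in 5 of 6, and the steps from Gstm4 to Gstm7 and from Gstm2 to Gstm5 held in all 6. The order differed with diet, so this pooled order describes neither diet exactly. With RD, Gstm2-ps1 (28.6 FPKM) lay below Gstm2 (33.7) and Gstm7 (50.3) in all 3 livers and Gstm6 (76.6) was next to Gstm3 (75.6), while with HCD Gstm3 (270) and Gstm2-ps1 (120) followed Gstm1. Gstm6 was above Gstm2-ps1 in 3 of 3 RD livers and 0 of 3 HCD livers, and Gstm2-ps1 was above Gstm4 in 0 of 3 RD livers and 3 of 3 HCD livers. All 8 genes passed the filter on low counts.

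HCD livers held more Gstm1, Gstm3 and Gstm2-ps1 RNA than RD livers, and the other 5 Gstm genes did not pass the test. With edgeR's quasi-likelihood test over 13105 genes, called at a Benjamini-Hochberg adjusted p under 0.05, 3 of the 8 were called higher with HCD and 0 lower. Over all genes tested, 3.27% were called, 1.95% higher (255 genes) and 1.32% lower (173), or 158 higher and 161 lower when library sizes alone were used for scaling. The count of Gstm genes called was 3 with that scaling and 3 without HCD replicate 1, but 1 with limma-trend on FPKM or with a trend of fold change with gene length removed, and 0 or 1 when any other single liver was left out. The log2 fold change was above 0 for all 8, as it was for 50.7% of all genes, and the median of all genes was 0.00736. These are levels per unit of liver RNA, and fewer cells of a type and less RNA per cell cannot be told apart.

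Gstm1, the main Mu enzyme of mouse liver (ENSMUSG00000058135, chromosome 3 from 108012255 to 108017973), stood at 1480, 1880 and 2220 CPM in the RD livers and at 3140, 4950 and 6020 CPM in the HCD livers. Every HCD liver lay above every RD liver, and the lowest HCD value was that of HCD replicate 1. The means were 1860 ± 370 and 4700 ± 1450 CPM (SD, n = 3), a 2.53-fold difference, with a log2 fold change of 1.34 (SE 0.27, adjusted p = 0.0407 by edgeR's quasi-likelihood test). Without HCD replicate 1 the log2 fold change was 1.56 (adjusted p = 0.0141).

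Gstm3 (ENSMUSG00000004038, from 107963696 to 107969283) encodes another Mu enzyme and lies 2 genes away, with Gstm2 in between. Its levels were 41.8, 62.9 and 98.0 CPM with RD and 128, 253 and 334 CPM with HCD. The diets again did not overlap, although the highest RD liver and the lowest HCD liver were close. The means of 67.6 ± 28.4 and 239 ± 104 CPM differed 3.53-fold, and the log2 fold change was 1.82 (SE 0.39, adjusted p = 0.0473). Without HCD replicate 1 it was 2.12 (adjusted p = 0.0212).

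Gstm2-ps1 (ENSMUSG00000107369) is the pseudogene whose reading frame carries the stop described above. Its levels were 9.47, 13.5 and 15.5 CPM with RD and 33.6, 59.7 and 66.0 CPM with HCD. The highest RD value was well below the lowest HCD value, that of HCD replicate 1. The means were 12.8 ± 3.09 and 53.1 ± 17.2 CPM, a 4.12-fold difference, and the log2 fold change was 2.04 (SE 0.28, adjusted p = 0.013). Without HCD replicate 1 it was 2.29 (adjusted p = 0.00543). Among the log2 fold changes of all genes tested, Gstm2-ps1 stood at percentile 99.1, Gstm3 at 98.8 and Gstm1 at 97.3.

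These 3 calls rested on small margins. Gstm1 and Gstm3 were not called when any 1 of RD replicates 1, 2 and 3 or HCD replicates 2 and 3 was left out (adjusted p from 0.0758 to 0.167 for Gstm1 and from 0.0568 to 0.193 for Gstm3), and Gstm2-ps1 was not called without RD replicate 1 (0.0696), RD replicate 2 (0.0708) or HCD replicate 3 (0.0505). With a trend of fold change with gene length removed, Gstm1 (0.0646) and Gstm3 (0.067) were not called either, and Gstm2-ps1 was (0.0177). With limma-trend on log2 FPKM the adjusted p was 0.0785 and 0.082 for Gstm1 and 0.0679 and 0.0717 for Gstm3, at offsets of 1 and 0.1.

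Gstm5, a Mu enzyme best known from brain and testis, was the least abundant. It stood at 6.68, 6.70 and 5.86 CPM with RD and at 9.60, 7.79 and 11.4 CPM with HCD, so that the diets did not overlap. Its log2 fold change of 0.58 (SE 0.22) had an adjusted p of 0.187 in edgeR's test and was not called. In all, 4 of the 8 Gstm genes had every HCD liver above every RD liver, beside 14% of all genes tested (27.6% did not overlap in either direction). An exact permutation test over the livers, two-sided, gave p = 0.10 for each of these 4, the smallest that 3 against 3 allows.

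The other 4 genes overlapped between the diets. Gstm2 stood at 35.6, 35.5 and 44.8 CPM with RD and at 43.8, 27.2 and 89.7 CPM with HCD, so that 1 HCD liver was the lowest of the 6 and another the highest. Its log2 fold change was 0.47 (SE 0.37, adjusted p = 0.508), and −0.13 without HCD replicate 3. Gstm4 ran from 52.9 to 85.4 CPM with RD and from 63.5 to 104 with HCD (log2 fold change 0.36, SE 0.23, adjusted p = 0.409), with 0.18 when HCD replicate 2 was left out and 0.59 for RD replicate 3. Gstm7 ran from 45.1 to 74.1 CPM and from 54.5 to 76.1 CPM (0.23, SE 0.22, adjusted p = 0.591), with 0.086 when HCD replicate 3 was left out and 0.50 for RD replicate 3. Gstm6 ran from 87.2 to 125 CPM with RD and from 85.5 to 146 with HCD (0.078, SE 0.22, adjusted p = 0.871), and its sign turned in 4 of 16 alternatives. The SE of these 4 genes, 0.22 to 0.37 on the log2 scale, is wide enough that a change of modest size would not have been called.

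**Figure D2:**
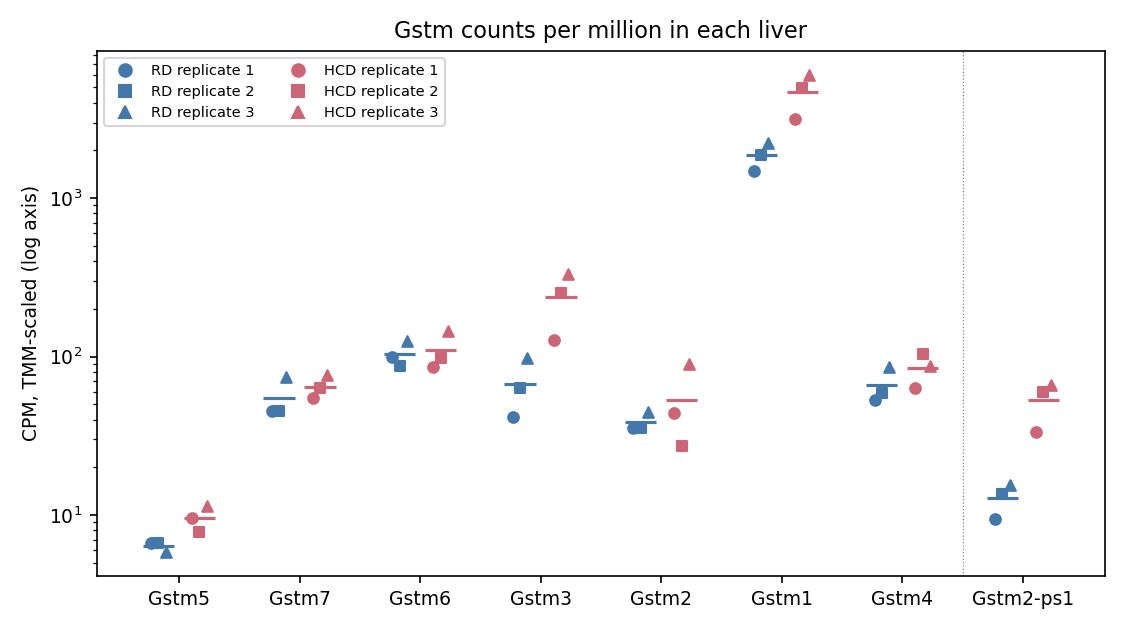
TMM-scaled CPM (log axis) of the 8 Gstm genes in each of the 3 RD and 3 HCD livers, with the mean of each diet. Gstm1, Gstm3, Gstm2-ps1 and Gstm5 have all HCD livers above all RD livers, and Gstm2, Gstm4, Gstm6 and Gstm7 overlap.

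Because similar genes can share reads, the 8 genes were also summed to 1 feature. The sum was 1770, 2190 and 2660 CPM in the RD livers and 3560, 5560 and 6830 CPM in the HCD livers, which did not overlap. Its means of 2210 ± 449 and 5320 ± 1650 CPM (SD, n = 3) differed 2.41-fold (log2 fold change 1.27, SE 0.27, adjusted p = 0.0476 by edgeR over 13098 features). Without HCD replicate 1 the log2 fold change was 1.49 (adjusted p = 0.0171), and without any other 1 liver the adjusted p ran from 0.08 to 0.186. Nor was the sum called with the length trend removed (adjusted p = 0.0753) or with limma-trend (0.0909 and 0.0956). The sum is mostly Gstm1. The 7 genes other than Gstm1 summed to 291, 311 and 449 CPM with RD and to 419, 613 and 810 with HCD, and this sum was not called (log2 fold change 0.81, SE 0.27, adjusted p = 0.138). All Gstm genes together made up 0.182, 0.228 and 0.265% of the counts of the RD libraries and 0.38, 0.544 and 0.605% of those of the HCD libraries.

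The make-up of the Mu pool was described by shares, none of which passed a test at 0.05. As a share of the summed FPKM of the 8 genes, Gstm1 went from 85.0 ± 1.26% with RD to 87.7 ± 0.333% with HCD (SD, n = 3) and Gstm2-ps1 from 1.31 ± 0.0886% to 2.21 ± 0.148%. Gstm6 went from 3.57% to 1.54%, Gstm4 from 2.58% to 1.4%, Gstm7 from 2.3% to 1.15% and Gstm2 from 1.57% to 0.88%. For these 6 genes the shares of the 3 RD livers and the 3 HCD livers did not overlap (exact permutation p = 0.10 each, two-sided, the smallest possible), while those of Gstm3 (3.37% and 4.85%) and Gstm5 (0.35% and 0.22%) did. Shares add up to the whole, so a higher share of 1 gene lowers those of others, and these are not 6 separate results. No such count was made for other sets of genes. The mean CPM of the 4 genes whose share was lower was itself not lower with HCD in the TMM-scaled values.

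Neighbours in the cluster were compared within each liver, as the log2 ratio of counts per length, which does not depend on library size. Of the 6 adjacent pairs, 4 had ratios that did not overlap between the diets. No such share was counted over other pairs of genes (27.6% of single genes did not overlap in either direction). In each of the 4 a called gene, Gstm3 or Gstm1, stood next to one that was not called. Both enter with each of their neighbours, and the ratios use the same counts as the calls, so these are not 4 separate results. The Gstm6 to Gstm3 ratio was 0.649, −0.129 and −0.247 in the RD livers and −1.19, −1.96 and −1.80 in the HCD livers. With RD Gstm6 was the higher of the pair in replicate 1 and slightly the lower in replicates 2 and 3, and with HCD Gstm3 was the higher of the pair in every liver. The difference of the means was −1.74 ± 0.37 (SE).

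Gstm3 to Gstm2 went from 0.588, 1.18 and 1.49 with RD to 1.91, 3.58 and 2.25 with HCD, a difference of 1.49 ± 0.57 (0.996 without HCD replicate 2). Gstm2 to Gstm1 went from −5.56, −5.91 and −5.82 to −6.35, −7.70 and −6.26, a difference of −1.0 ± 0.48, so that Gstm2 was further below Gstm1 with HCD. Without HCD replicate 2, the liver with the lowest Gstm2 level, this difference was −0.54. Gstm1 to Gstm4 went from 5.02, 5.20 and 4.91 to 5.84, 5.79 and 6.33, a difference of 0.94 ± 0.19. Each of these 4 pairs had an exact permutation p = 0.10 (two-sided, the smallest possible) and p = 0.15 adjusted over the 6 pairs, which does not pass 0.05.

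The pairs at the other end of the cluster overlapped between the diets. Gstm5 to Gstm7 differed by 0.31 ± 0.33 (exact p = 0.40; 0.0098 when RD replicate 3 was left out, 0.19 for HCD replicate 1) and Gstm7 to Gstm6 by 0.20 ± 0.15 (exact p = 0.30). Along the chromosome, from Gstm5 to Gstm4, the log2 fold changes thus ran 0.58, 0.23, 0.078, 1.82, 0.47, 1.34 and 0.36, and Gstm2 lies between both called genes of the cluster. The ratio of Gstm3 to Gstm1 itself differed by 0.49 ± 0.23 with overlapping diets (exact p = 0.20).

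**Figure D3:**
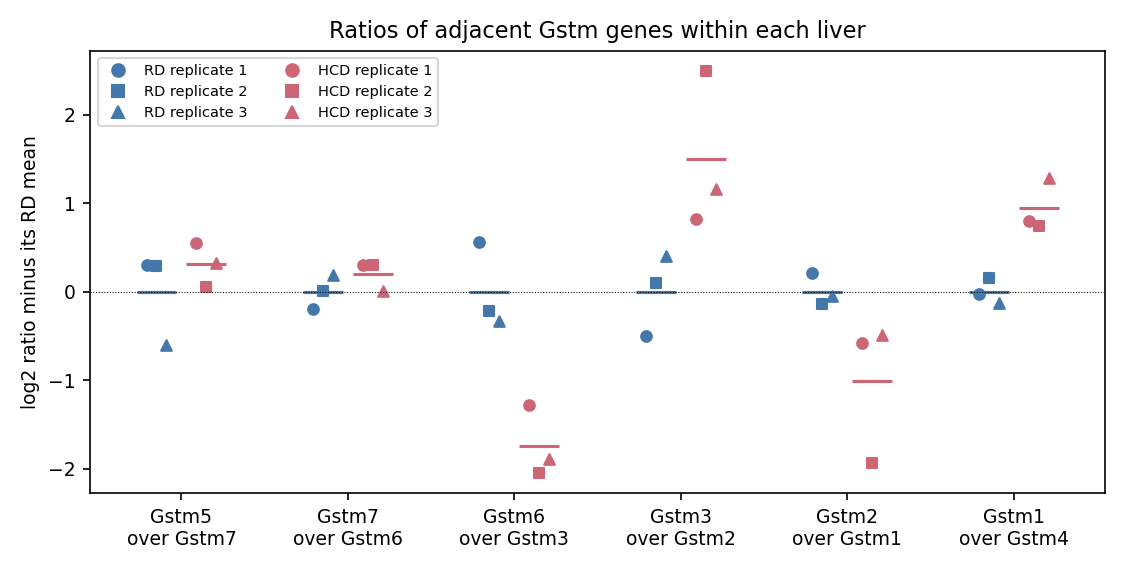
Log2 ratio of counts per length between adjacent Gstm genes in each liver, minus the RD mean of that pair, with the mean of each diet. Of the 6 pairs, Gstm6 to Gstm3, Gstm3 to Gstm2, Gstm2 to Gstm1 and Gstm1 to Gstm4 do not overlap between the 3 RD and 3 HCD livers.

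None of the tested genes on either side of the cluster was called. Within 250 kb of its ends, 19 other genes were listed and 11 were tested. edgeR called 0 of the 11, as did DESeq2, and by unadjusted p (0.05 or less) 0 were higher and 4 lower. Of all genes tested, 20.9% passed that unadjusted p, 11.1% higher and 9.81% lower, and DESeq2 called 4.01% higher and 3.19% lower. Later counts by unadjusted p or DESeq2 are to be read against these shares. Their median log2 fold change was −0.37, with 4 above 0 and 7 below, and 5 of the 11 had every HCD liver below every RD liver, beside 13.7% of all genes tested. The lowest value was −1.58 for Gnat2, a transducin subunit of cone photoreceptors with only 127 counts in all (SE 0.57, adjusted p = 0.169), and the highest 0.39 for Atxn7l2 (SE 0.47, adjusted p = 0.68). On the Gstm5 side, Ahcyl1 had −0.37, the growth factor gene Csf1 −0.46 and 4933431E20Rik −0.79. On the Gstm4 side, the AMP deaminase gene Ampd2 had −0.43, the G protein subunit gene Gnai3 −0.27, Amigo1 0.025, Cyb561d1 0.032, the proteasome subunit gene Psma5 0.064 and Sort1, the sorting receptor sortilin, −0.38, none of them called.

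4933431E20Rik is an antisense transcript that overlaps the start of Gstm5. The sources used here do not give the strand setting of the counting, so reads of these genes may not have been told apart. Its values pointed the other way from those of Gstm5, with 3.16 CPM in the RD mean and 1.83 in the HCD mean (adjusted p = 0.341).

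**Figure D4:**
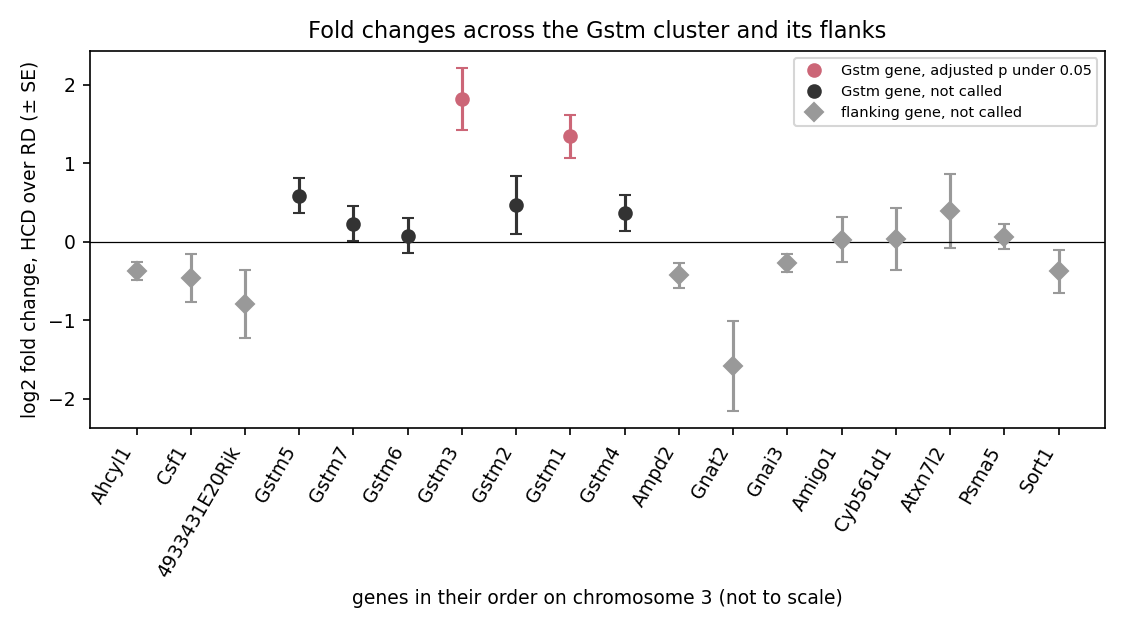
Log2 fold change (HCD over RD, with its SE) of the Gstm genes of chromosome 3 and the tested genes within 250 kb, in chromosomal order. Gstm3 (1.82) and Gstm1 (1.34) were called, and the flanking genes lie between −1.58 and 0.39. Gstm2-ps1 of chromosome 5 (2.04, called) is not shown.

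The 3 called genes were also the 3 most alike in sequence, and the sources used here do not say how reads that match several genes were counted. Of all windows of 50 bases in its transcripts, Gstm2-ps1 shared 46.88% exactly with transcripts of other genes, and 35.36% were found in Gstm1, some of them possibly in further genes too. Gstm3 shared 28.76%, with Gm8834, Gstm2-ps1 and Gstm1 as its leading partners, and Gstm1 shared 18.88%. Gstm5 shared 9.437% (with 4933431E20Rik), Gstm6 5.974%, Gstm2 5.655%, Gstm7 0.5322% and Gstm4 0%. The shares depend on the window: at 100 bases they were 12.9% for Gstm2-ps1, 13.78% for Gstm3 and 5.86% for Gstm1. The values of these 3 genes are uncertain for that reason, and the part of shared reads in their rise was not tested.

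Gstm2-ps1 was not in a fixed ratio to Gstm1. Its log2 ratio to Gstm1, per length, was −6.12, −5.95 and −5.99 with RD and −5.38, −5.21 and −5.35 with HCD, a difference of 0.71 ± 0.073 (exact p = 0.10, the smallest possible). Every HCD liver was above every RD liver, and the spread within a diet was small. Against Gstm3 its ratio differed by 0.22 ± 0.20, with overlapping diets (exact p = 0.40). These ratios were chosen after seeing the data.

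Across the livers these 3 genes went together. On log2(CPM + 0.5), the Pearson correlation over 6 livers was 0.993 for Gstm1 and Gstm3, 0.992 for Gstm1 and Gstm2-ps1 and 0.977 for Gstm3 and Gstm2-ps1. Taken as deviations from the mean of each diet, the values were 0.984, 0.987 and 0.973. Gstm1 and Gstm2 had 0.437 (0.426 within diets), and Gstm1 and Gstm4 had 0.779 (0.811). These are descriptions over 6 points that share libraries, and for the called genes also sequence. Of 9109 other genes whose mean reached 5 CPM, those most like Gstm1 were Bdh2 (0.996), D8Ertd738e (0.992), Ttl (0.992), Vac14 (0.991) and F12 (0.991), the gene of coagulation factor XII. Most like the summed Gstm counts were Bdh2 (0.997), Ttl (0.991), Tmem150a (0.991), D8Ertd738e (0.991) and Vac14 (0.990). None of these 6 genes was called between the diets (adjusted p from 0.09 to 0.698).

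The sequences before the starts of Gstm1 and Gstm3, which were called, and of Gstm5, which was not, are shown because the core of the antioxidant response element, the DNA motif of NRF2, was searched there. The motif was TGACNNNGC on both strands, in windows from 250 bases before to 50 bases after each RefSeq start (GRCm38.p6). Printed 5′ to 3′ on the strand of the gene, without bases inside the annotated gene, are chr3:108017974-108018223 (minus strand) for Gstm1, chr3:107969284-107969424 (minus strand) for Gstm3 and chr3:107895604-107895820 (plus strand) for Gstm5. Capitals mark the motif.
Gstm1: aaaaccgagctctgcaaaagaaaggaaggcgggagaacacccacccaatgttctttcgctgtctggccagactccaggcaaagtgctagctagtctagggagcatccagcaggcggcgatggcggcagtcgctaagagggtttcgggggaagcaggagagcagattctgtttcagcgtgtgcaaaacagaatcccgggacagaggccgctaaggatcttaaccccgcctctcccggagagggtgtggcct
Gstm3: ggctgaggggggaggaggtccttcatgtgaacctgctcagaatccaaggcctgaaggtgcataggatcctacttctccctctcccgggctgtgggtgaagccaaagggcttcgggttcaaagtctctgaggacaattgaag
Gstm5: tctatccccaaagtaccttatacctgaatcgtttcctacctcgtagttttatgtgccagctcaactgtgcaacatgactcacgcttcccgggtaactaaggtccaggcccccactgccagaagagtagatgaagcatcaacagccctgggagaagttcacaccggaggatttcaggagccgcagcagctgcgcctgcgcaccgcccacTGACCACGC
The motif was found in the Gstm5 window, as TGACCACGC starting 42 bases before the RefSeq start, and in 1 of 2 windows of Gstm7, as TGACAAAGC starting 129 bases before. The windows of Gstm1, Gstm3, Gstm2, Gstm4 and Gstm6 did not hold these letters. Of all 32851 windows, 12.4% held the motif. No window was given for Gstm2-ps1.

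Other cytosolic glutathione transferases, of the Alpha, Pi, Theta, Omega and Zeta classes, were partly higher with HCD as well. Of 12 tested, 4 were called higher and 0 lower, 10 had a log2 fold change above 0, and the median was 0.78 (0.59 without HCD replicate 1). Gsta4, which conjugates the lipid peroxidation product 4-hydroxynonenal, had means of 55.3 CPM with RD and 139 with HCD (log2 fold change 1.33, adjusted p = 0.013). Gsta2, an inducible Alpha enzyme, had means of 16.7 and 69.2 CPM (2.05, adjusted p = 0.0252), the Theta gene Gstt2 26.8 and 51.7 CPM (0.95, adjusted p = 0.038), and the Omega gene Gsto1 78.5 and 135 CPM (0.78, adjusted p = 0.0313). Without HCD replicate 1, Gsta4 and Gsta2 were called and Gstt2 (adjusted p = 0.0699) and Gsto1 (0.0544) were not, and with the length trend removed Gsto1 (0.0676) was not. When RD replicate 1, RD replicate 2 or HCD replicate 3 was left out, none of the 4 genes was called. Of the mitochondrial and microsomal transferases, 0 of 3 were called by edgeR, 2 were higher by unadjusted p and 2 by DESeq2, with a median of 0.60.

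The list of glutathione synthesis and recycling also held genes that break glutathione down or use it, and its median was near that of all genes. Of 17 tested, edgeR called 0, 5 were higher by unadjusted p (11.1% of all genes were), DESeq2 called 1 higher, and the median was 0.059. In all, 9 of the 17 were above 0. Among the genes of synthesis and reduction, Gclc and Gss had 0.52, Gclm 0.47 and Gsr 0.26 on the log2 scale. None of them was called by edgeR (adjusted p from 0.0952 to 0.439). Of 5 glutathione peroxidases, which use glutathione to reduce peroxides, 1 was called higher: Gpx1 had means of 1490 CPM with RD and 3200 with HCD (log2 fold change 1.11, adjusted p = 0.0293). The list median was 0.42.

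Genes that NRF2 activates outside the glutathione system had a median of 0.38 (0.41 without HCD replicate 1, 0.20 without HCD replicate 2). Of the 22 tested, 17 were above 0 and 1 was called higher. This was Ftl1, the light chain of the iron store ferritin, with means of 1220 and 2520 CPM (log2 fold change 1.05, adjusted p = 0.0283). DESeq2 called 5 of the 22 higher. Of 13 targets of CAR and PXR, the receptors that switch on drug metabolism, 2 were called higher, with a median of 0.57 (6 higher and 1 lower by unadjusted p, 6 higher by DESeq2): the cytochrome P450 genes Cyp2a5 (205 and 607 CPM, log2 fold change 1.57, adjusted p = 0.0124) and Cyp3a11 (2730 and 5710 CPM, 1.06, adjusted p = 0.0329). Of 16 regulators of these genes, 1 was called lower and 0 higher, with a median of −0.085 (−0.25 without HCD replicate 1). By unadjusted p 3 were higher and 2 lower, and DESeq2 called 1 lower and 0 higher. Rxra, the shared partner of CAR, PXR and other nuclear receptors, had means of 516 CPM with RD and 321 with HCD (−0.68, adjusted p = 0.0449). Nfe2l2, which encodes NRF2, was not called, with 0.39 on the log2 scale (adjusted p = 0.233), nor was Keap1, its inhibitor, with 0.17 (adjusted p = 0.476). Of these calls, those of Gpx1, Ftl1, Cyp2a5 and Cyp3a11 were also made without HCD replicate 1, and that of Rxra was not (adjusted p = 0.0673). With the length trend removed, Gpx1 (0.0527), Ftl1 (0.0547) and Rxra (0.0908) were not called, and Cyp2a5 (0.0177) and Cyp3a11 (0.0398) were. Of the 6 livers left out in turn, Cyp2a5 was called in 4, Gpx1 and Cyp3a11 in 2, Ftl1 in 1 and Rxra in 0, and without RD replicate 1 or RD replicate 2 none of these 5 genes was called.

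Other cells of the liver were followed by their markers. Absent from the deposited values were 1 cholangiocyte and 1 leukocyte marker, and none of the others was at 0 in all livers. edgeR called 0 of 10 hepatocyte, 0 of 6 cholangiocyte, 0 of 10 Kupffer cell, 0 of 10 sinusoidal endothelial, 0 of 10 stellate cell and 0 of 3 leukocyte markers. Kupffer cell markers, of the resident macrophages, had a median of 0.84, with 10 of 10 above 0 and a summed level of 168 to 277 CPM with RD and 230 to 506 with HCD. By unadjusted p 5 of them were higher (11.1% of all genes were), and DESeq2 called 4 (4.01%). Their median was 0.62 without HCD replicate 1. The medians of the others were 0.22 for hepatocytes (3 higher and 1 lower by unadjusted p, and likewise by DESeq2), 0.37 for cholangiocytes (0, and 0 by DESeq2), 0.24 for endothelial cells (1, and 1 by DESeq2), 0.41 for stellate cells (2, and 0 by DESeq2) and 0.10 for leukocytes (0, and 0 by DESeq2), whose summed level was 6.83 to 12.9 CPM with RD and 9.24 to 18.2 with HCD. Leaving out HCD replicate 1, the medians were 0.20 for hepatocytes, 0.35 for cholangiocytes, −0.0041 for endothelial cells, 0.28 for stellate cells and −0.13 for leukocytes. Their part in the Gstm values was not tested.

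Glutathione transferases are known to be uneven across the liver lobule, so genes of its zones were counted too. Of 14 pericentral genes edgeR called 0 (1 higher and 1 lower by unadjusted p, 1 lower by DESeq2). Their summed levels were 7600 to 12700 CPM with RD and 9320 to 10900 with HCD. Their median was −0.17, with −0.31 when HCD replicate 1 was left out and −0.0030 for RD replicate 2. Of 14 periportal genes 1 was called higher, Hsd17b13 (328 and 566 CPM, log2 fold change 0.79, adjusted p = 0.04), with a list median of 0.050. Hsd17b13 was not called without HCD replicate 1 (adjusted p = 0.058) or with the length trend removed (0.0763), and it was called in 1 of 6 fits that left out a single liver. Of the male-biased genes, 2 of 15 were called lower, Moxd1 (36.3 and 0.677 CPM, adjusted p = 0.0134) and Ugt2b38 (46.8 and 12.7 CPM, adjusted p = 0.0354), with a median of −1.35, and of the female-biased genes 1 of 6 was called higher, Acot4 (19.1 and 71.7 CPM, adjusted p = 0.041), with a median of 1.63. When HCD replicate 1, the liver with Xist, was left out, 5 of the 15 male-biased genes were called lower and 1 female-biased gene higher, and these medians were −0.77 and 0.42. With other single livers left out the male-biased count fell to as few as 0, and Acot4 was called in none of those 5 fits (adjusted p up to 0.15).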

How the data were processed

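Liver RNA of 6 mice was sequenced, 3 per diet, and HCD against RD was the only comparison. Diet and replicate come from the sample labels. The authors deposited read counts per gene, whole numbers without normalization, and FPKM, per kilobase of gene and scaled to a total that is not stated. The authors also deposited log2 fold changes, p-values and adjusted p from their own comparison, which were not used. The paper states that RNA was extracted with the RNeasy kit and that Novogene sequenced and analysed it. The submitters' processing notes name STAR, HTSeq, DESeq2, edgeR and GRCm39. The library kit, strand setting, annotation and handling of reads that match several genes are not given in the sources used here. The lengths implied by counts and FPKM matched GENCODE M21 within 0.1% for 95.49 to 95.92% of genes, and 20666 of 20673 listed genes were found there by identifier.

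The counts were fitted with edgeR 4.0.16 (R 4.3.3). filterByExpr by diet left 13105 genes, TMM factors were 0.886 to 1.07, and a quasi-likelihood F test of diet gave log2 fold changes, SE and p, and p was adjusted over these genes by Benjamini-Hochberg. The script was tested on simulated data. The depth was 13771630 to 23129576 counts per library. The common biological coefficient of variation was 27.8%, and genes with few counts carry counting error besides. For the sum, the 8 Gstm genes were replaced by 1 feature in the same fit. Ratios of neighbours used counts plus 0.5, divided by exon length. Exact permutation tests were two-sided over all assignments of the 6 livers. Sequences were read from M21 transcripts and RefSeq promoter windows, and coding sequences were aligned with Biopython 1.88.

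The Gstm genes and the lists were chosen with earlier results of these data known. The lists were other cytosolic and mitochondrial or microsomal transferases, glutathione synthesis and recycling, peroxidases, targets of NRF2 and of CAR and PXR, regulators, and markers of liver cell types, lobule zones and sex. Genes named are all Gstm genes, tested genes within 250 kb, the 3 largest rises and falls among called genes of each list, the 5 genes most correlated with Gstm1 and with the sum, and a few that state a limit. Gsto1, Nfe2l2, Keap1, Gclc, Gclm, Gss and Gsr were named in addition, after their values were seen. The alternatives were no filter, library sizes alone, factors by RLE or upper quartile, a mean of at least 50 counts, removal of the length trend (loess, span 0.5), DESeq2 1.42.0, limma 3.58.1 (limma-trend on log2 FPKM plus 1 or 0.1), a replicate block, each liver left out, and for ratios FPKM plus 0.1 and counts plus 5.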

Additional observations from a re-analysis of the deposited data

How the results depend on the processing

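The alternatives were run on the Gstm genes, their sum, the 6 ratios of neighbours and the genes called, and a part of them (RLE, the length trend, the replicate block and single livers left out) on the list medians. For the flanking genes only the counts called were run, which were 0 with DESeq2, with the length trend removed and with each liver left out. No alternative was run on the shares of the pool, the correlations or the added ratios. In all, 338 values counted as kept, 28 as no longer called, 46 as moved and 5 (Gstm2 and Gstm6) as reversed. Some kept or moved list medians changed sign. Gstm1, Gstm3, Gstm2-ps1, Gstm4, Gstm5 and Gstm7 kept a positive log2 fold change in each of their 16 alternatives, from 0.18 to 0.59 for Gstm4, 0.40 to 0.71 for Gstm5 and 0.085 to 0.50 for Gstm7. Gstm6 was at −0.0061 with library sizes alone, −0.036 with the length trend removed, −0.040 without RD replicate 2 and −0.19 without HCD replicate 3, in a range of −0.19 to 0.23 over single livers left out, and Gstm2 ranged from −0.13 without HCD replicate 3 to 0.78 without HCD replicate 2. The number of Gstm genes called was 3 with no filter, library sizes alone, RLE or upper-quartile factors, a mean of at least 50 counts and DESeq2, and 1 (Gstm2-ps1) with the length trend removed and with limma-trend at either offset. It ran from 0 to 3 with 1 liver left out: 0 when RD replicate 1, RD replicate 2 or HCD replicate 3 was left out, 1 for RD replicate 3 or HCD replicate 2, and 3 for HCD replicate 1. With limma-trend the adjusted p of Gstm1 was 0.0785 and 0.082 and that of Gstm3 was 0.0679 and 0.0717. The summed log2 fold change was 1.11 (adjusted p = 0.0753) with the length trend removed, 1.285 with limma-trend (0.0909 at an offset of 1 and 0.0956 at 0.1) and 0.81 (0.138) without Gstm1, and it ran from 1.04 to 1.49 with 1 liver left out. Without Gstm2-ps1 it was 1.26 (0.0475). The sums without Gstm1 or Gstm2-ps1 were chosen after seeing the data. The cause of these differences was not tested, beside the smaller number of livers.

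Replicate numbers did not pair the livers: the correlation of deviations of same-numbered livers was −0.0838, 0.119 and −0.0298, and not every liver correlated best with its own number. With the replicate block, 136 genes were called (71 higher and 65 lower) in place of 428, while 3 Gstm genes were called and the summed log2 fold change was 1.24 (adjusted p = 0.0455).

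The number of genes called over the whole table was 649 with no filter (285 lower), 251 with the length trend removed (138 higher and 113 lower), 995 with DESeq2 (554 higher and 441 lower), 158 higher with library sizes alone and 115 lower with limma-trend at 0.1. With 1 liver left out it ran from 36 (without RD replicate 1) to 335, with 15 to 200 higher and 21 to 141 lower. List medians ran, with 1 liver left out, from 0.014 to 0.21 for glutathione synthesis and recycling, 0.20 to 0.41 for NRF2 targets (0.29 with the length trend removed), −0.25 to 0.032 for regulators, 0.064 to 0.26 for hepatocytes, −0.13 to 0.43 for leukocytes and 0.42 to 2.04 for female-biased genes. They ran from −0.17 (without RD replicate 1) to 0.31 (without RD replicate 3) for periportal genes, −0.31 to −0.0030 (without RD replicate 2) for pericentral genes, 0.087 (without RD replicate 3) to 0.51 for cholangiocytes, −0.0041 to 0.47 for endothelial cells, 0.28 to 0.60 for stellate cells and −2.10 to −0.77 for male-biased genes. No ratio of neighbours changed its direction, and with 1 liver left out the differences ran from 0.0098 to 0.46 for Gstm5 to Gstm7, 0.10 to 0.30 for Gstm7 to Gstm6, −1.97 to −1.46 for Gstm6 to Gstm3, 0.996 to 1.83 for Gstm3 to Gstm2, −1.26 to −0.54 for Gstm2 to Gstm1 and 0.77 to 1.04 for Gstm1 to Gstm4. The exact permutation test used for the ratios cannot give a p below 0.10 with 3 livers against 3, so its p says nothing of their stability.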
